A study of Mus musculus with 10 samples.

Results

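The genes followed here encode eEF2, the factor that moves the ribosome along the mRNA, its kinase, and the mTOR kinase with its partners and targets in translation control. They were Eef2, Eef2k, Mtor, Rptor, Rictor, Rps6kb1, Eif4e, Eif4ebp2 and Tsc1, which makes 9 genes. The study followed this pathway at the level of protein, through eEF2 phosphorylation. A probe set, the group of array oligonucleotides that reads 1 transcript region, was taken as a member when its annotation named 1 of these genes and no other. The rule gave 28 probe sets of the 45037 on the array, which read 8 of the 9 genes. No probe set was named for Rps6kb1 in the annotation used here, and S6 kinase 1 was therefore not analysed here.

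RNA came from the cerebral cortex of 5 WT mice and 5 Crtc1-/- littermates. All 10 mice were untreated females of strain C57BL/6N aged 2 months, and the genotype, written Crtc1KO in the labels, was the difference between the groups. Each cortex was hybridized to its own Affymetrix mouse genome array, and the values are on the log2 scale, so that a difference of 1 is a doubling of signal. Arrays measure mRNA and carry no information on phosphorylation. The tissue was bulk cortex, in which fewer cells of a type and less RNA per cell cannot be told apart.

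Translation elongation is braked when eEF2 kinase, which calcium and calmodulin activate, phosphorylates eEF2. mTOR works in a pair of complexes, one built around raptor (Rptor) and the other around rictor (Rictor). Complex 1 is held back by the TSC proteins and is switched on at the lysosome by Rag GTPases when amino acids are present. Once active, it phosphorylates S6 kinase and the eIF4E-binding proteins, which releases the cap-binding protein eIF4E, and S6 kinase in turn inhibits eEF2 kinase. In neurons this pathway controls protein synthesis at synapses, and rapid-acting antidepressants have been linked to it.

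CRTC1 is a coactivator of CREB, a transcription factor that binds the cAMP response element. The sequences of Eef2 and Eef2k are given around a start that RefSeq places on GRCm38.p6, because the single start of Eef2 holds the full response element and the first of 3 starts of Eef2k a half-site. The windows of the other 2 starts of Eef2k hold neither. Capitals mark each TGACG on either strand, and where these overlap in Eef2 they form the palindrome TGACGTCA.
Eef2, chr10:81176571-81176642, plus strand: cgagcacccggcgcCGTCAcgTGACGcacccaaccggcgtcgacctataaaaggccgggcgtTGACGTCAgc
Eef2k, chr7:120842771-120842842, plus strand: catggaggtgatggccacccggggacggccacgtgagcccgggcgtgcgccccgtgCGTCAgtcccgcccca
Both stretches run from 60 bases before the start to 12 bases after it. The full element of Eef2 lies at positions 3 to 10 counted from the first transcribed base, and 2 further half-sites lie at −46 to −42 and −39 to −35. In windows of 250 bases before and 50 after the start, TGACGTCA occurs in 1.79% of all 32851 RefSeq windows and TGACG on either strand in 20.8%. By gene, 1 of the 9 members has the full element, against 2.03% of all 27025 RefSeq genes, and 7 have a half-site in at least 1 window, against 23.0%. Both shares are higher among the genes measured on the array that also have a RefSeq window. Of these, 422 have the full element and 14030 lack it, and 4336 have a half-site and 10116 lack it. The other measured genes of the 18193 matched no window and were left out. The half-sites of Rptor (−179 to −175), Eif4ebp2 (−185 to −181), Tsc1 (−139 to −135), Rictor (16 to 20) and the second of 2 starts of Eif4e (−67 to −63) stand alone, while the windows of Mtor and Rps6kb1 hold neither set of letters. A match is a run of letters and not a measured binding site.

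Crtc1 itself read 9.69 ± 0.15 in WT and 6.38 ± 0.27 in Crtc1-/- cortices at its brightest probe set (SD, n = 5 per genotype). Cortical identity was checked with 7 measured markers of excitatory cortical neurons, each with a mean between 9.05 and 13.12. Their mean was 10.15 ± 0.04 in WT and 10.09 ± 0.02 in Crtc1-/- mice (two-sided exact permutation test, p = 0.0238, n = 5 per genotype). All 11 measured oligodendrocyte markers were above 0 in log2 fold change, although none passed alone, and their mean ranged from 9.97 to 10.30 in WT and from 10.23 to 10.55 in Crtc1-/- mice (exact permutation test, p = 0.0476, n = 5 per genotype). Of 12 hippocampal markers, 7 were above 0 and 5 below, and 2 passed as lower, where 0.456% of all genes did. The part of these markers in the results was not tested beyond the covariates named with each value. None of the 9 genes lies on chromosome 8, which carries Crtc1.

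None of the 28 probe sets passed the test in either direction. In limma's fit, with p-values adjusted by Benjamini-Hochberg over all 45037 probe sets, 0 were lower and 0 were higher in Crtc1-/- cortex at an adjusted p of 0.05. Of all probe sets 0.302% passed, 0.187% as lower and 0.115% as higher. At an unadjusted p of 0.05, 1 of the 28 passed, where 7.19% of all probe sets did. In none of the 28 did the genotypes separate without overlap, as they did in 2.08% of all probe sets. The log2 fold changes ran from −0.18 to 0.23, with 13 below and 15 above 0 and a median of 0.0045. A missed threshold does not show that a level is the same, so the 95% confidence intervals were used to state what size of change the arrays leave possible. For 27 of the 28 probe sets the whole interval lay within 1.5-fold in either direction (98.3% of all probe sets did), and for 18 it lay within 1.2-fold (69.6% of all). All 28 lay within 2-fold (99.8% of all). The exception at 1.5-fold was the dim Tsc1 probe set 1439989_at.

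**Figure D1:**
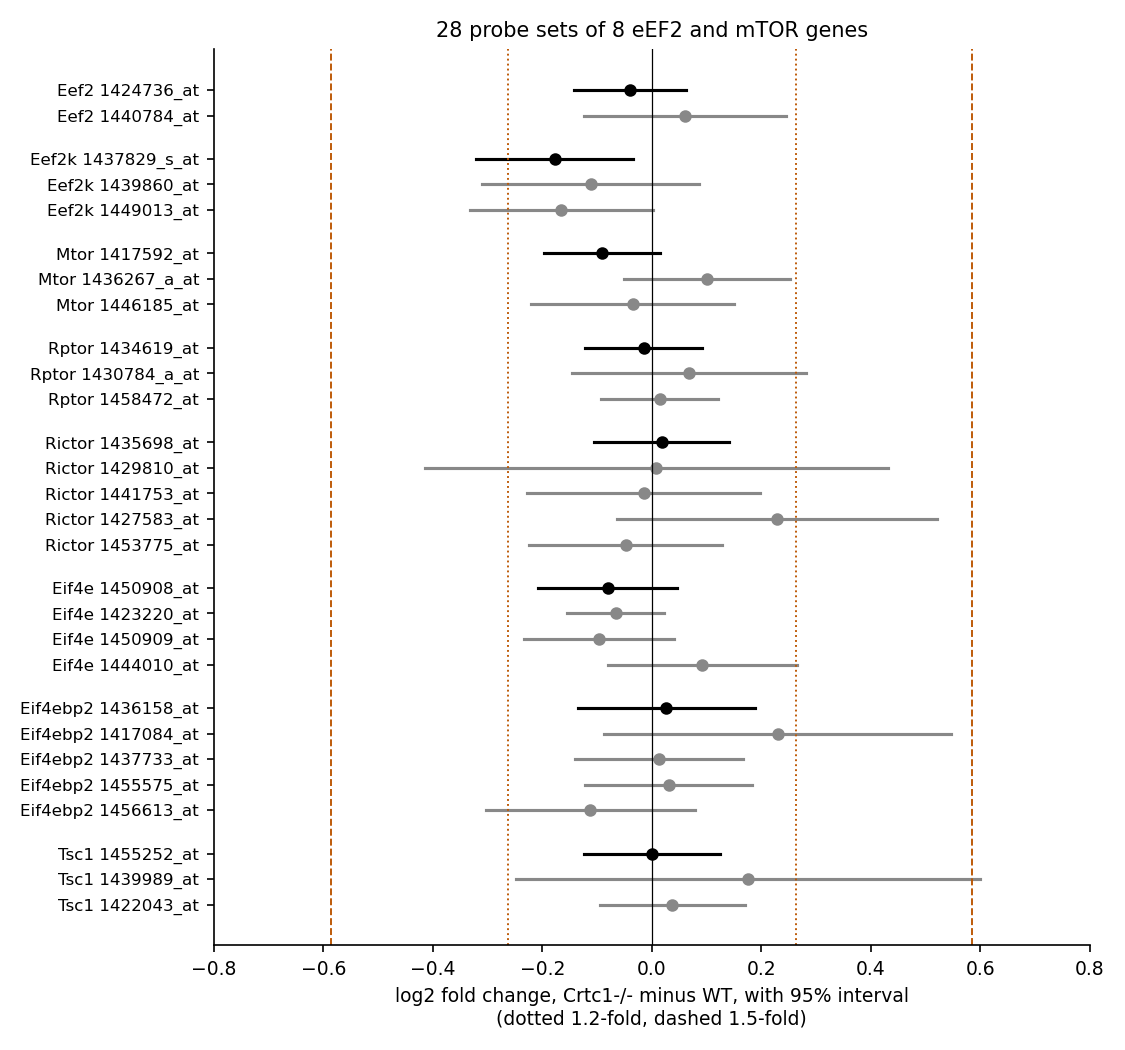
Fold change on the log2 scale (x axis, Crtc1-/- minus WT) with 95% confidence interval from limma for the 28 probe sets, grouped by gene, with the brightest probe set of each gene in black and the others in grey. Dotted lines mark 1.2-fold and dashed lines 1.5-fold. The interval of Eef2k 1437829_s_at, from −0.32 to −0.03, is the single one that does not reach 0, and that of Tsc1 1439989_at alone crosses a dashed line.

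Eef2, the elongation factor, was measured with a narrow interval. Its probe set 1424736_at was brighter than 99.0% of all probe sets. It read 12.13, 12.08, 12.04, 11.95 and 12.01 in WT replicates 1 to 5 and 12.04, 11.95, 11.97, 12.01 and 12.04 in Crtc1-/- replicates 1 to 5. The highest pair of cortices were WT and the groups otherwise shared 1 range, with both lowest values at 11.95. The means were 12.04 ± 0.07 and 12.00 ± 0.04 (SD, n = 5 per genotype), a log2 fold change of −0.04 (standard error 0.05, 95% confidence interval −0.14 to 0.06). As a change in signal this is −2.71%, with limits of −9.40% and 4.48% (limma adjusted p = 0.932). It was −0.02 without WT replicate 1 and −0.06 without WT replicate 4, and 0.02 with the oligodendrocyte marker mean as a covariate. For the gene with the full response element at its start, a decrease beyond 9.40% thus lies outside the interval. The other Eef2 probe set, 1440784_at, was dim, between 2.98 and 3.41 in all 10 arrays, with a log2 fold change of 0.06 (−0.12 to 0.24).

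Eef2k, the kinase that phosphorylates eEF2, was the one member whose 3 probe sets all had negative log2 fold changes. Its brightest probe set, 1437829_s_at, read 8.03, 8.01, 8.06, 7.88 and 7.77 in WT mice and 7.86, 7.74, 7.74, 7.85 and 7.67 in Crtc1-/- mice. WT replicates 1, 2 and 3 stood above every Crtc1-/- mouse, WT replicate 4 stood just above the highest of them, and WT replicate 5 fell among them. The means were 7.95 ± 0.12 and 7.77 ± 0.08 (SD, n = 5 per genotype), a log2 fold change of −0.18 (standard error 0.07, interval −0.32 to −0.03), or −11.6% in signal with limits of −20.0% and −2.28%. This did not pass the correction (adjusted p = 0.562 over probe sets and 0.345 over genes, limma), and the unadjusted p was 0.0200 (exact permutation test, p = 0.0317). The other probe sets gave −0.17 (1449013_at, interval −0.33 to 0.00194) and −0.11 (1439860_at, interval −0.31 to 0.09). At 1449013_at, WT mice lay between 6.41 and 6.53 and Crtc1-/- mice between 6.08 and 6.54, so the spread was wider in Crtc1-/- mice. At 1439860_at the genotypes overlapped over most of their range, from 6.75 to 7.15 in WT and from 6.65 to 7.01 in Crtc1-/- mice. Probe sets of 1 gene come from the same RNA and are not replicates of each other. With the oligodendrocyte marker mean as a covariate the log2 fold change of Eef2k was −0.14 (standard error 0.08, adjusted p = 0.913, limma). The alternative without probe sets of expected cross-hybridization dropped 1437829_s_at. There 1439860_at stood for the gene, at −0.11 (adjusted p = 0.794, limma). No alternative took Eef2k past the threshold, and its adjusted p ran from 0.150 to 0.913 over 21 alternatives.

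**Figure D2:**
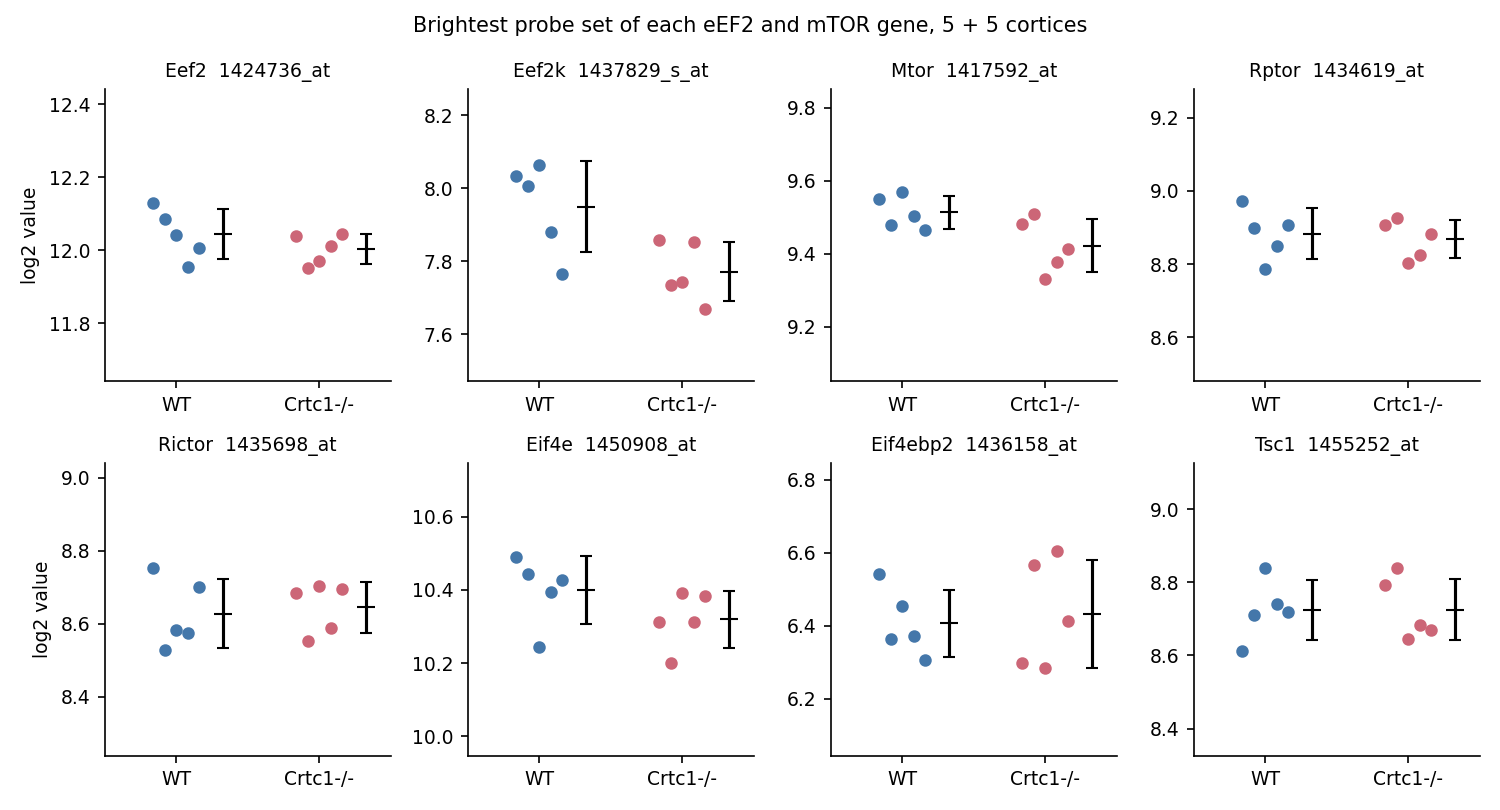
Log2 values (y axis of each panel, not starting at 0, each spanning at least 0.8) of the brightest probe set of the 8 measured genes in 5 WT (blue) and 5 Crtc1-/- (red) cortices, with replicates 1 to 5 from left to right and bars for the group mean ± SD. The genotypes overlap in every panel, with Eef2k at 7.95 ± 0.12 and 7.77 ± 0.08 the widest apart.

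Mtor, the kinase itself, read 9.55, 9.48, 9.57, 9.50 and 9.47 in WT mice and 9.48, 9.51, 9.33, 9.38 and 9.41 in Crtc1-/- mice at 1417592_at. The lowest 3 cortices were Crtc1-/- and the highest pair were WT, with the other 5 intermixed. The log2 fold change was −0.09 (interval −0.20 to 0.01, adjusted p = 0.767, limma), which bounds the change in signal between −12.8% and 1.01%. Its other probe sets gave 0.10 (1436267_a_at) and −0.03 (1446185_at), so the sign was not shared within the gene, and the average over its probe sets was −0.0086.

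The complex partners and the inhibitor of complex 1 had fold changes close to 0 at their brightest probe sets. Rptor, the scaffold of complex 1, ranged from 8.79 to 8.97 in WT and from 8.80 to 8.92 in Crtc1-/- mice at 1434619_at, a log2 fold change of −0.01 (interval −0.12 to 0.09). Rictor, the scaffold of complex 2, ranged from 8.53 to 8.75 and from 8.55 to 8.70 at 1435698_at, a log2 fold change of 0.02 (−0.11 to 0.14). Tsc1, which stabilizes the TSC complex, ranged from 8.61 to 8.84 and from 8.65 to 8.84 at 1455252_at, a log2 fold change of 0.00067 (−0.12 to 0.12). In each of these genes all Crtc1-/- values lay inside the WT range. A change beyond 9.04% upwards or 8.20% downwards lies outside the interval of Tsc1 at this probe set. The 4 other probe sets of Rictor and the 2 others each of Rptor and Tsc1 were dimmer. The widest of their intervals, that of Tsc1 1439989_at, ran from −0.25 to 0.60 around a log2 fold change of 0.18. Rictor 1427583_at gave 0.23 (−0.06 to 0.52). Over all probe sets of a gene, 3 were above 0 and 2 below for Rictor, 2 above and 1 below for Rptor, and 3 above and 0 below for Tsc1.

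Among the cap-binding genes, Eif4e, which binds the cap of mRNA, read 10.49, 10.44, 10.24, 10.39 and 10.43 in WT mice and 10.31, 10.20, 10.39, 10.31 and 10.38 in Crtc1-/- mice at 1450908_at. Apart from WT replicate 3, the WT cortices were at or above the highest Crtc1-/- cortex, and the log2 fold change was −0.08 (interval −0.21 to 0.05, adjusted p = 0.861, limma). It was −0.04 with the oligodendrocyte marker mean as a covariate, −0.04 as the average of all its probe sets and −0.05 without Crtc1-/- replicate 2. The probe sets 1423220_at and 1450909_at, which share a source sequence with it, gave −0.07 and −0.10. At 1423220_at the WT values ran from 9.14 to 9.23 and the Crtc1-/- values from 9.07 to 9.15 (exact permutation test, p = 0.0159, and limma adjusted p = 0.822), which bounds the change between −10.2% and 1.60%. The fourth probe set, 1444010_at, was dim and gave 0.09. Eif4ebp2, the main eIF4E-binding protein of brain, read 6.54, 6.36, 6.45, 6.37 and 6.31 in WT mice and 6.30, 6.57, 6.28, 6.60 and 6.41 in Crtc1-/- mice at 1436158_at. The Crtc1-/- mice held both the highest and the lowest values, and the log2 fold change was 0.03 (−0.14 to 0.19). At 1417084_at, which is nearly as bright, it was 0.23 (−0.09 to 0.55). There WT replicate 1 read 5.72, below the other WT mice, which ran from 6.31 to 6.58, and the Crtc1-/- mice ran from 6.32 to 6.70. This probe set became the brightest when WT replicate 1, WT replicate 2 or Crtc1-/- replicate 4 was left out. Without WT replicate 1 it gave 0.08. The remaining 3 probe sets gave values between −0.11 and 0.03.

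By the median, intervals were narrower for the brightest probe set of each gene than for the others, but single dim probe sets departed from this. The dim Rptor probe set 1458472_at had an interval of −0.09 to 0.12, about as narrow as that of Eef2 1424736_at (−0.14 to 0.06). The half-width of the 95% interval, on the log2 scale, had a median of 0.12 (0.10 to 0.16) over the brightest probe sets of the 8 genes and of 0.18 (0.089 to 0.42) over the other 20. Over all 45037 probe sets the median was 0.15. Of the 28 members, 13 were dimmer than the median probe set, and values there say little about the level of the transcript.

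The other genes of the pathway were taken from 9 lists by role, which named 109 genes, of which 97 had a probe set that names them alone. At the level of genes, with the brightest probe set for each of 18193 genes, 0 of the 97 were lower and 1 was higher, where 0.764% of all genes passed, 0.456% as lower and 0.308% as higher. The median log2 fold change of the 97 was −0.02, beside −0.0030 over all genes. Of the 97, 66 were below 0 and 31 above, beside 9393 below and 8800 above over all genes. The interval lay within 1.5-fold for 96 of the 97, against 98.7% of all genes. At the same level, 0 of the 8 measured members were lower or higher in limma's test, and 1, Eef2k, had an unadjusted p below 0.05 (9.86% of all genes). The intervals of 7 lay within 1.2-fold, with Eef2k as the exception (76.1% of all genes), and those of all 8 within 2-fold (99.7%).

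The gene that passed was Rragd, a Rag GTPase that recruits mTOR complex 1 to the lysosome. It read 10.41, 10.30, 10.29, 10.29 and 10.10 in WT mice and 10.68, 10.55, 10.64, 10.70 and 10.67 in Crtc1-/- mice at 1434909_at. Every Crtc1-/- cortex lay above every WT cortex. The genotypes were without overlap in 4 of the 97 genes and in 3.14% of all genes. Rragd rose by 0.37 on the log2 scale (standard error 0.06, interval 0.25 to 0.49, adjusted p = 0.00972 over genes and 0.0249 over probe sets, limma), a rise of 29.3% in signal with limits of 18.7% and 40.9%. Of its other probe sets, 1440555_at gave 0.24 (−0.06 to 0.54), with WT replicate 5 at 7.69 above all other cortices, and the dim 1431164_at gave 0.01 (−0.15 to 0.17). When all probe sets of Rragd were averaged, the log2 fold change was 0.21 and did not pass (adjusted p = 0.225, limma). With the oligodendrocyte marker mean as a covariate it was 0.43 (adjusted p = 0.0406, limma). The call held with each of the 10 arrays left out in turn.

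Ddit4l, which encodes a stress-induced inhibitor of mTOR complex 1 related to REDD1, had the largest log2 fold change of the 97 genes but did not pass. At 1444139_at it read 8.34, 9.03, 8.98, 9.21 and 9.30 in WT mice and 9.90, 9.47, 9.66, 9.59 and 9.89 in Crtc1-/- mice, so that every Crtc1-/- cortex lay above every WT cortex. WT replicate 1 was the lowest of the 10. The log2 fold change was 0.73 (standard error 0.16, interval 0.38 to 1.08, adjusted p = 0.0704 over genes, limma). The genotypes were likewise without overlap at its other probe sets, 1439332_at with 0.64 (adjusted p = 0.0795, limma) and 1451751_at with 0.75 (adjusted p = 0.0989, limma). Without WT replicate 1 the log2 fold change was smaller, 0.57, and passed (adjusted p = 0.0334, limma). With the oligodendrocyte marker mean as a covariate it was 0.60 (standard error 0.21, adjusted p = 0.564, limma). That covariate itself differed between genotypes, and with it 54 of all genes passed, against 139 in the main fit.

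**Figure D3:**
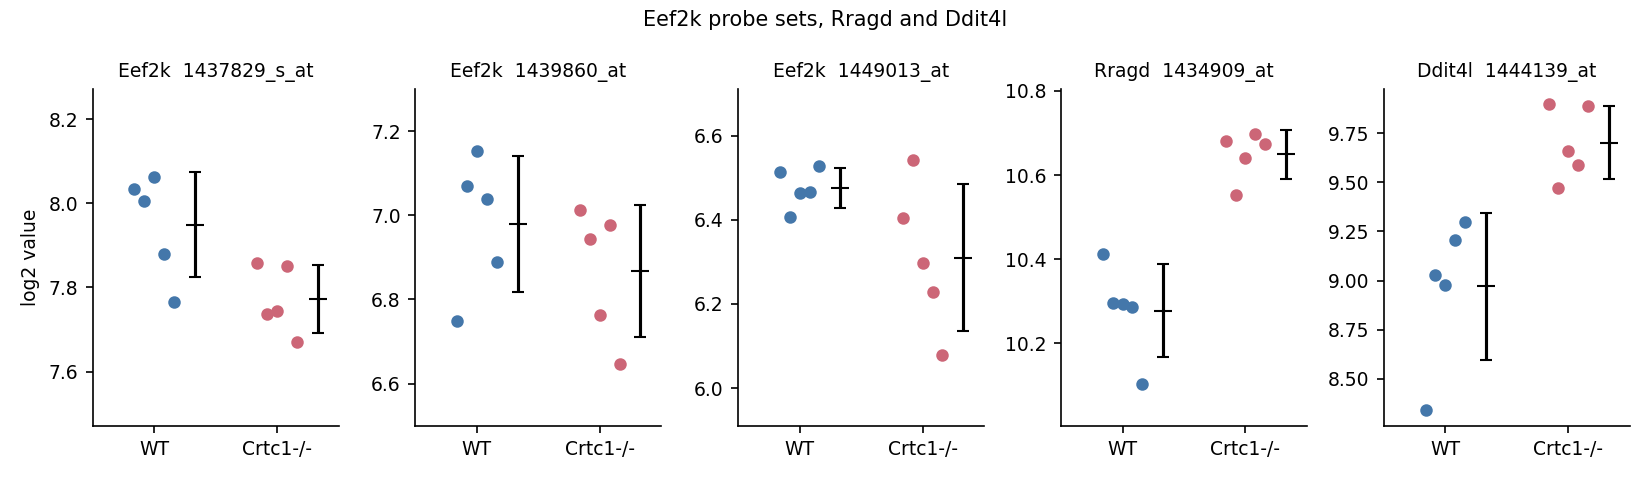
Log2 values (y axis of each panel, not starting at 0) of the 3 Eef2k probe sets and of the brightest probe sets of Rragd and Ddit4l in 5 WT (blue) and 5 Crtc1-/- (red) cortices, with replicates 1 to 5 from left to right and bars for the group mean ± SD. The genotypes overlap in the Eef2k panels and are apart for Rragd, at or below 10.41 in WT and at or above 10.55 in Crtc1-/- mice, and for Ddit4l, at or below 9.30 and at or above 9.47.

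By role, the lists stayed near 0. The genes of amino acid sensing had 22 of 23 members that did not pass. Among them Slc38a9, the arginine sensor of the lysosome, read 7.38 ± 0.09 in WT and 7.21 ± 0.05 in Crtc1-/- mice (SD, n = 5 per genotype, limma adjusted p = 0.165), and Sesn2, a leucine sensor that restrains complex 1, 6.90 ± 0.06 and 6.77 ± 0.04 (SD, n = 5 per genotype, limma adjusted p = 0.297). The genotypes did not overlap in either gene. Of 8 partners of the mTOR complexes, 7 were below 0, with a median of −0.07, and the exception was Prr5l, a rictor-binding protein (0.18, adjusted p = 0.421, limma). Prr5l gave 0.04 with the oligodendrocyte marker mean as a covariate and 0.11 without WT replicate 1. The 4 genes of the TSC complex and Rheb had a median of −0.03, and Rhebl1, a relative of Rheb, had the smallest p of them (−0.07). In the S6 kinase branch, 5 of 5 did not pass, and Pdcd4, an S6 kinase target that blocks the eIF4A helicase, gave −0.11 (interval −0.20 to −0.02, adjusted p = 0.372, limma).

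Further down the pathway, 12 genes of cap binding had a median of 0.0049, and Eif4e3, an eIF4E relative, gave −0.11 (adjusted p = 0.432, limma). The 8 genes of elongation and termination, among them the release factors Etf1 and Gspt1, had log2 fold changes between −0.03 and 0.01, the narrowest range of the 9 lists. Eef1b2, the exchange factor of eEF1A, gave −0.03 (interval −0.11 to 0.05) and had the smallest p of them. Among 9 measured regulators of eEF2 and its kinase, Dph6, an enzyme of the diphthamide modification of eEF2, gave −0.18 (interval −0.37 to 0.02, adjusted p = 0.568, limma), and the phosphatase subunit gene Ppp2ca gave 0.04 (−0.03 to 0.12). The 3 calmodulin genes of this list were not analysed here. In the eIF2 branch, 14 of 14 did not pass, and Eif2ak1, an eIF2 kinase, gave 0.10 (−0.05 to 0.25). With the oligodendrocyte marker mean as a covariate Dph6 gave −0.32 and Eif2ak1 0.21, and the average of the probe sets of Eif2ak1 was 0.00041. Upstream of mTOR, 14 inputs had a median of −0.03, with 13 of 14 intervals within 1.5-fold and Ddit4l as the exception.

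**Figure D4:**
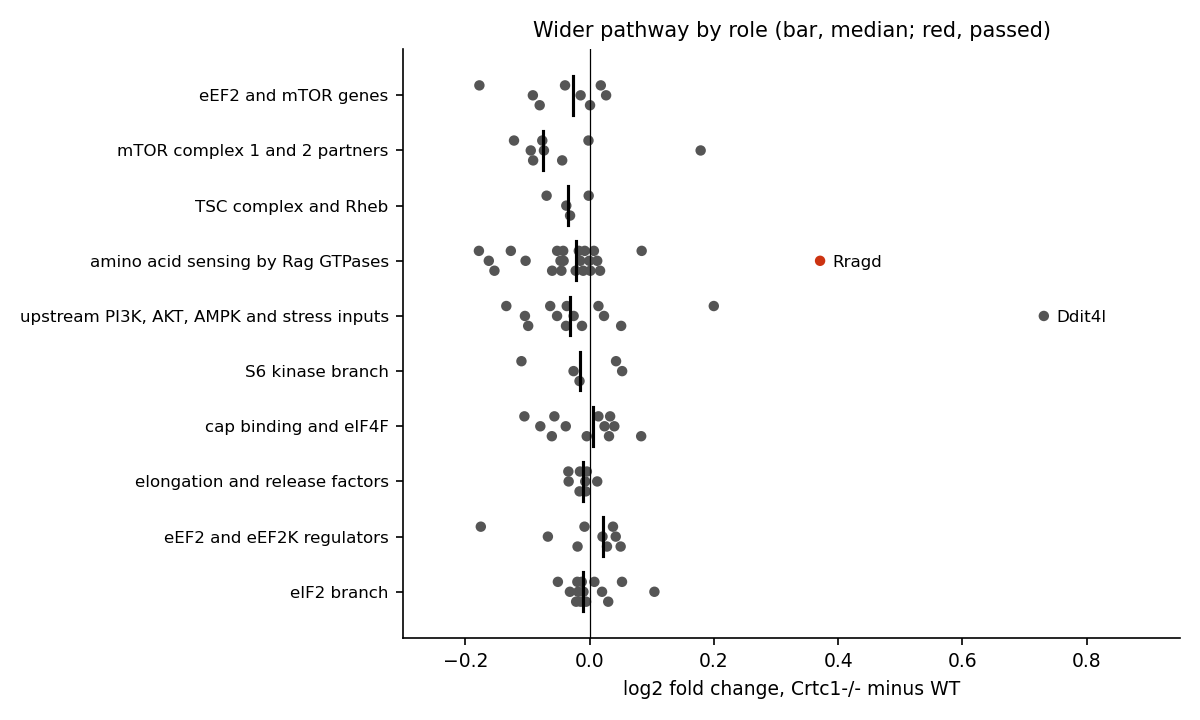
Fold change on the log2 scale (x axis, Crtc1-/- minus WT) of the 8 measured members and of the 97 other pathway genes by role (rows), each point a gene at its brightest probe set, with a bar at the median of the row. Rragd at 0.37 is the red point that passed, Ddit4l at 0.73 lies farthest out without passing, and the other points lie between −0.18 and 0.20.

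By the pattern across the 10 arrays, after the mean of each genotype was taken away, the genes most like Eef2 among 9096 genes of at least median brightness were Decr1 (Pearson r = 0.967), Cdk2ap1 (0.962) and Pgp (0.958). These values describe 10 arrays and say nothing of shared control.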

How the data were processed

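The authors labelled 300 ng of total RNA per cortex, hybridized 1 array per mouse, dropped arrays of poor quality by their normalized unscaled standard errors and deposited summarized log2 values. How these were corrected for background, normalized and summarized is not given in the sources used here, and such steps can compress the differences of dim probe sets. Array medians lay between 5.29 and 5.32, and arrays correlated with each other at 0.994 to 0.998. Precision is limited by how few arrays there are, 5 of each genotype. The labels number the mice but do not say whether same-numbered mice are paired.

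The deposited log2 values were fitted as they stand in limma (version 3.58.1, R 4.3.3), with genotype as the single term and 64 control probe sets removed. The study's methods give a moderated statistic with a false discovery rate, and the same was used here, with a threshold of 0.05 on the adjusted p and 95% confidence intervals. Genes were fitted separately on their brightest probe set. Single values were tested with a two-sided exact permutation test, whose smallest p is 0.00794. The annotation gave 34945 probe sets 1 gene, 932 several and 9160 none, and 34741 of the first matched a gene identifier on GRCm38.p6.

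Promoter windows were RefSeq's on GRCm38.p6, where all 9 genes matched, and their letters were searched after the values were seen. The genes and all lists were chosen with earlier results of these data known. Named are all members, from each pathway list the genes that passed or up to 3 of the smallest p, Crtc1, and the 3 genes most like Eef2. Marker lists of striatum, microglia, endothelium, choroid plexus and blood differed between genotypes with an exact permutation p of 0.175 or more, of astrocytes with 0.0714 and of hippocampus with 0.119 (n = 5 per genotype). Alternatives changed the scaling (quantiles or medians), the probe sets kept (bright ones, or those without expected cross-hybridization), the variance model (trended and robust, unmoderated, array weights), the terms (the replicate block, oligodendrocyte or hippocampal markers), the summary per gene, and the arrays (each left out).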

Additional observations from a re-analysis of the deposited data

Results flagged for a closer look

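Of 78 groups of 5 mice checked for 1 value far from the others, 3 stood out, and chance gives about 1 in 20. WT replicate 5 read 3.68 at the dim Rictor probe set 1453775_at, where the next WT mouse read 3.36. Crtc1-/- replicate 1 read 3.41 at the dim Rptor probe set 1458472_at, where the next read 3.50. WT replicate 3 read 7.81 for Eif4e3 (1417977_at), where the next read 7.91. None of these probe sets passed the test.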

How the results depend on the processing

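No member probe set passed in any of 20 alternatives. The number with an interval within 1.5-fold was 27 and lay between 25 and 28 with arrays left out in turn. It was 15 when dim probe sets were left out, since 15 members remained. The count of other pathway genes that were higher was 1 as reported and 1 to 2 with arrays left out. It was 2 without dim probe sets (Ddit4l joined at an adjusted p of 0.0481, limma) and 0 with the replicate number as a block, where Rragd did not pass (log2 fold change 0.37, which such a block cannot alter, adjusted p = 0.0612, limma). The correlation of same-numbered mice ran from −0.33 to 0.09, and 1 of 5 WT arrays fitted best with its own number. The labels do not say whether the numbers pair mice, and these correlations over all probe sets cannot settle it. With the hippocampal marker mean as a covariate 1 pathway gene, Fnip2, was lower. With all probe sets of a gene averaged, Ddit4l passed (0.71, adjusted p = 0.0482, limma) in place of Rragd.

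The sign of members near 0 turned, with no call. Median centring gave −0.0036 for Tsc1. The oligodendrocyte covariate gave 0.0212 for Eef2, 0.0428 for Rptor and −0.0257 for Tsc1, and the hippocampal covariate −0.0263 for Rictor and −0.0308 for Tsc1. Averaging probe sets gave 0.0103 for Eef2 and 0.0228 for Rptor. With arrays left out, log2 fold changes ran from −0.0388 to 0.00801 (Rptor), from −0.00703 to 0.0491 (Rictor), from −0.00648 to 0.231 (Eif4ebp2) and from −0.0277 to 0.0295 (Tsc1). For Eif4ebp2 the 0.231 was read by 1417084_at, which then stood for the gene, and the −0.00648 by 1436158_at. Over all 21 alternatives Eef2k ran from −0.22 to −0.11, Mtor from −0.13 to −0.0086 and Eif4e from −0.12 to −0.04. The −0.11 of Eef2k was read by 1439860_at, with 1437829_s_at left out. Without 1 array Eef2 ran from −0.06 to −0.02, Dph6 fell in size to −0.12 (Crtc1-/- replicate 5), Rhebl1 to −0.03 (WT replicate 5) or −0.04 (Crtc1-/- replicate 3) and Eef1b2 to −0.0223 (WT replicate 4). Eif4e3 was −0.06 with the oligodendrocyte covariate, Eef1b2 −0.0170 with the hippocampal one and Sesn2 −0.07 as a probe set average. The cause of these turns was not tested.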

Other observations

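The full response element at the start of Eef2 prompted a count over all measured genes with a RefSeq window, made after the values were seen. Of 422 measured genes with TGACGTCA in a promoter window, 2.13% were lower (9 genes) and 0.237% higher (1 gene) in Crtc1-/- cortex, beside 0.406% lower and 0.271% higher of 14030 measured genes whose windows lack it. The median log2 fold change was −0.0044 with the letters and −0.0042 without them. For the half-site TGACG, 0.715% of 4336 genes were lower and 0.161% higher, beside 0.346% and 0.316% of 10116 without it. TGACGTCA contains TGACG, so the 4336 genes include the 422 with the full element, and the counts are not separate. Eef2 was among the genes with the full element that did not pass. These are counts with no test.

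The probe sets 1450908_at of Eif4e and 1455252_at of Tsc1, the brightest of each gene, mirrored each other from mouse to mouse. Another bright Eif4e probe set, 1423220_at, did not repeat this. Its highest WT and Crtc1-/- mice, replicate 4 (9.23) and replicate 1 (9.15), read 8.74 and 8.79 for Tsc1, above the genotype means of 8.72 and 8.73. No correlation was computed for other probe sets, so the values below belong to 1450908_at and 1455252_at alone and not to the genes. Over the 10 arrays, after the genotype means were taken away, Pearson's r was −0.916 (exact permutation test within genotype, p = 6.94e-05, adjusted p = 0.00194 over 28 pairs of members) and Spearman's rho was −0.927 (exact permutation test, p = 0.00410, adjusted p = 0.115). Without the 2 arrays farthest from the median of Eif4e, r was −0.821. The other 27 pairs had an adjusted p of at least 0.551 for Pearson's r. The pair was singled out after the values were seen, and the part of array quality and normalization in it was not tested.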
